A study of Mus musculus with 28 samples.

Results

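Solute carriers are membrane proteins that move ions, sugars, amino acids, metals, nucleotides and neurotransmitters across the cell surface and across the membranes of organelles. In brain they clear glutamate, GABA, glycine and monoamines from the synapse, load synaptic vesicles, bring glucose and amino acids across the blood-brain barrier, set chloride and pH in neurons and glia, and supply mitochondria. Their genes are grouped into numbered families by sequence, SLC1 being the glutamate transporters and SLC25 the mitochondrial carriers. The probe sets described here were all those whose annotation gave a single gene symbol starting with Slc and a digit, with 1 cation-chloride cotransporter gene left out by the rule. They number 184 probe sets for 150 genes, of 12422 probe sets in all, of which 10833 had a single gene symbol and covered 8251 genes. Testing was limited to probe sets brighter than the array's median signal on 3 or more arrays, and 110 solute carrier probe sets for 98 genes passed, among 7350 probe sets kept in all. A gene with 1 kept probe set is named by its symbol alone. Some of these, such as Slc30a4, Slc38a2, Slc39a4 and Slc44a4, had other probe sets that were not kept. The symbol rule also took in 3 probe sets for proteins that are not carriers, the adaptors Slc9a3r1 and Slc9a3r2, which anchor membrane proteins, and Slc4a1ap.

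The study measured RNA from the whole brain of 28 C57BL/6J mice with Affymetrix U74Av2 arrays, using a separate array for each animal, in 6 groups. Without treatment there were 6 wild-type mice, 5 of the alpha7 +/T genotype and 5 of the beta4 null genotype, and mice taken 1 hour after a seizure induced by injected nicotine were 3, 5 and 4 of these. The alpha7 +/T mice are heterozygous for an L250T change in the alpha7 nicotinic receptor subunit, beta4 null mice have no functional beta4 subunit gene, and the nicotine dose was set for each genotype to give alike seizures. Every seized group therefore combines genotype with dose, and no group was injected without a seizure. Mice are numbered within a group in the order of deposition. Signals are linear values in arbitrary units, differences are on the log2 scale with their standard errors, and a probe set was called when its limma p-value, adjusted by Benjamini-Hochberg over the 7350, was under 0.05.

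The arrays stood apart in a technical measure before any group was compared. Each array reads Gapdh near both ends of the transcript, and the log2 ratio of the 3 prime to the 5 prime reading was -0.478 to 0.0961 on 9 arrays and 1.13 to 2.57 on the 19 others. The low-ratio arrays were those of 2 untreated and 3 seized alpha7 +/T animals and of 2 untreated and 2 seized beta4 null animals, and 0 came from wild-type mice. With the groups held constant, 54 of the 110 solute carrier probe sets (49.1%) differed between low-ratio and high-ratio arrays in limma, against 52.1% of all probe sets kept, and 33 of the 54 were higher on low-ratio arrays. Age was also uneven, since untreated alpha7 +/T mice 1 to 4 were 6 weeks old and mouse 5 was 8 weeks old, 3 of the 6 untreated wild-type mice were 6 weeks old, and every seized mouse was 7 weeks or older. Both sexes were present in every group, but every low-ratio array of beta4 null mice came from a male. Low-ratio arrays of alpha7 +/T mice came from both sexes. Sample titles carry 1 of 2 prefixes, LT or B4, whose meaning the labels do not give. All 10 alpha7 +/T mice were LT and all 9 beta4 null mice were B4, while the untreated wild-type mice were 3 LT and 3 B4 and the seized ones 1 LT and 2 B4, so prefix runs with genotype. Marker probe sets of neurons, astrocytes and oligodendrocytes exceeded the median of their array on at least 14 of the 28 arrays in 6 of 7, 9 of 10 and 8 of 9 cases.

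A probe set of Slc2a3, the main glucose transporter of neurons, had the largest difference between array classes among the 110. Slc2a3 was read by a pair of probe sets. The probe set 92292_at had untreated wild-type signals from 20.8 to 37.8 with a median of 28.4. In untreated alpha7 +/T mice its signals were 11.8, 129, 185, 135 and 27.6, and in seized alpha7 +/T mice 137, 215, 173, 36.9 and 21.2. In beta4 null mice they were 131, 168, 28.4, 26.9 and 33.7 untreated and 135, 154, 39.9 and 12.7 after seizure. The 9 low-ratio arrays all lay above 130, and of the high-ratio arrays only that of untreated alpha7 +/T mouse 2 exceeded 40. This probe set was 2.44 ± 0.286 (log2, SE) higher on low-ratio arrays, with an adjusted limma p of 6.63e-08. The other Slc2a3 probe set, 93804_at, was 0.46 ± 0.129 higher (adjusted limma p 0.0036). Slc2a1, the glucose transporter of the blood-brain barrier and of glia, was 1.44 ± 0.156 higher on low-ratio arrays (adjusted limma p 1.6e-08). Signals of Slc2a1 in seized beta4 null mice were 351 and 382 on low-ratio arrays and 109 and 134 on high-ratio arrays. Slc25a44, a mitochondrial carrier, differed by 1.43 and Slc35e1, of the nucleotide sugar transporter family, by 1.53 in the same direction. Slc32a1, which loads GABA and glycine into synaptic vesicles, was 0.81 lower on low-ratio arrays (log2 difference -0.81 ± 0.122). Wild-type mice had no low-ratio array, so each comparison with them sets mixed array classes against 1 class, and values with array class as a covariate are given where calls changed.

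**Figure D1:**
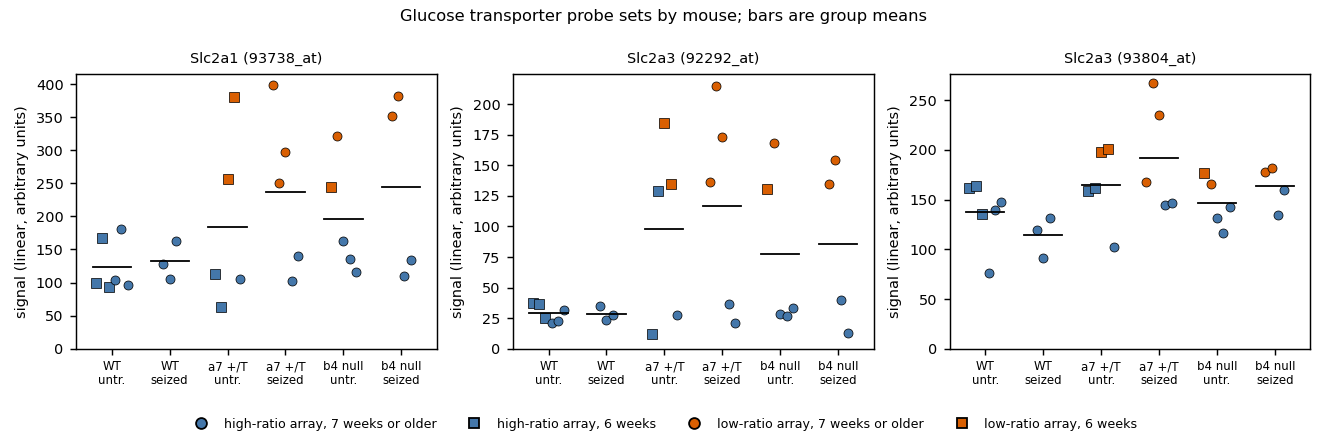
Signals (linear, arbitrary units, y axis) of Slc2a1 and of both Slc2a3 probe sets in each of 28 mice by group, with bars at group means, colour for array class and squares for mice of 6 weeks. The 9 low-ratio arrays of Slc2a3 92292_at lie above 130, while among the 19 high-ratio arrays only 1 mouse exceeds 40.

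After seizure, averaged over the 3 genotypes with equal weights, 0 of the 110 solute carrier probe sets passed, against 0.408% of all probe sets kept (0.327% risen and 0.0816% fallen). At an unadjusted p under 0.05 there were 2 (1.82%), against 8.64% of all probe sets. The log2 differences ran from -0.37 for Slc25a53, a mitochondrial carrier, to 0.47 for Slc7a2, a cationic amino acid transporter, with a median of 0.0074 against 0.012 for all probe sets. The median size of the difference was 0.112. For 108 of the 110 probe sets the 95% interval of the difference lay within a 2-fold change either way, and for 87 within 1.5-fold. Whole brain pools all regions, so fewer cells of a type and less RNA per cell cannot be told apart in these values.

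**Figure D2:**
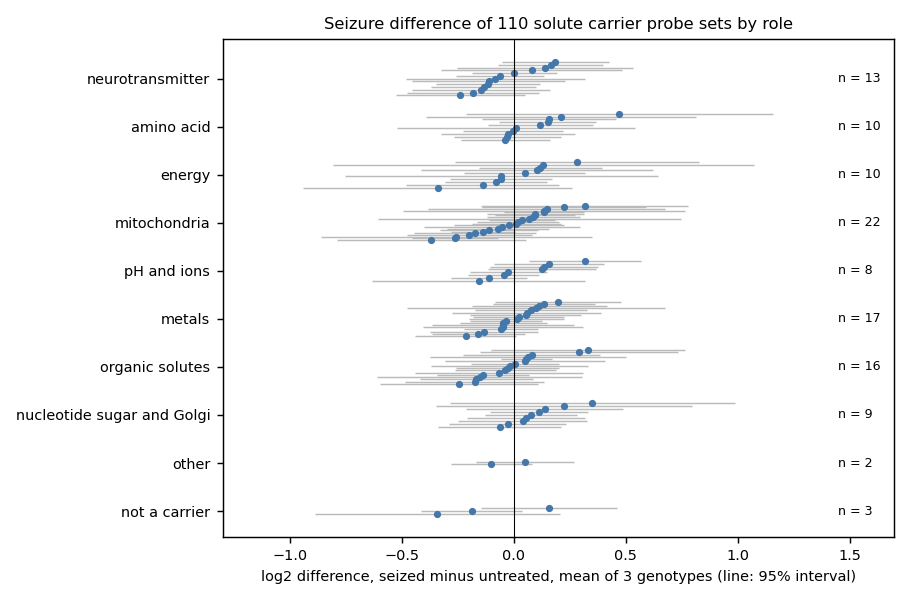
Log2 difference between seized and untreated mice, averaged over 3 genotypes (x axis), for 110 solute carrier probe sets, grouped by transporter role (y axis). Points are estimates and lines are 95% intervals; the estimates lie between -0.37 and 0.47 and 0 probe sets passed the adjusted threshold.

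The 13 kept probe sets of the neurotransmitter families (SLC1, SLC6 and SLC32) had seizure differences from -0.24 to 0.19 with a median of -0.082, and 0 had an unadjusted p under 0.05. Slc1a2, the astrocytic glutamate transporter, differed by -0.18 ± 0.144 with a 95% interval of -0.479 to 0.112. Slc1a1, the glutamate transporter of neurons, differed by 0.14 ± 0.192, and Slc1a6, the glutamate transporter of Purkinje cells, by -0.15 ± 0.151. Slc1a4, a neutral amino acid exchanger of the same family, differed by -0.061 ± 0.096. Slc6a9, the glycine transporter GlyT1, had untreated wild-type signals from 236 to 359 with a median of 311.5 and seized wild-type signals of 386, 326 and 368. Its seizure difference was 0.16 ± 0.115, with an interval of -0.071 to 0.399, and the groups overlapped. Slc32a1 ranged from 3159 to 4063 in untreated wild-type mice with a median of 3461, and was 3012, 3236 and 2776 in seized ones. The groups overlapped, and the averaged difference was -0.11 ± 0.167. The largest estimate above 0 among these families was 0.19 ± 0.117 for Slc6a15, a neutral amino acid transporter of neurons. The taurine transporter Slc6a6 differed by -0.12, the creatine transporter Slc6a8 by -0.14, and the GABA transporter Slc6a13 by 0.0018. Slc6a20b, an imino acid transporter, differed by 0.079. The serotonin transporter Slc6a4 gave -0.24 ± 0.141 on 161695_f_at and -0.082 ± 0.195 on 99040_at.

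Several transporters that define a transmitter system were too dim in whole brain to be tested. The dopamine transporter Slc6a3 had a median of 12.9 in untreated wild-type mice, the vesicular acetylcholine transporter Slc18a3 had 3.49, and the noradrenaline transporter Slc6a2 had 23.6 and 17.5 on its probe sets. None of these exceeded the array median in 3 arrays. The GABA and betaine transporter Slc6a12 and Slc6a18 were likewise not kept, as was 1 of the pair of probe sets for each of Slc1a1, Slc6a6 and Slc6a8. The SLC17 family was read only by a pair of probe sets for Slc17a1, and neither was kept. The vesicular glutamate transporters of that family had no probe set among the solute carriers here, so they were not measured.

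Carriers of fuel and amino acids at the blood-brain barrier also gave no call after seizure. Slc2a1 differed by 0.28 ± 0.266, with an interval of -0.262 to 0.828. Slc2a3 differed by 0.13 ± 0.459 on 92292_at and by 0.048 ± 0.131 on 93804_at. Slc7a5, the large neutral amino acid transporter, differed by -0.0020 ± 0.109, with an interval of -0.226 to 0.222. Its partner chain Slc3a2 differed by -0.029 ± 0.117. The lactate transporter Slc16a1 was not kept. The 10 kept probe sets of the amino acid families (SLC3, SLC7, SLC15 and SLC38) lay between -0.037 and 0.47 with a median of 0.065, and the 10 of the energy families between -0.34 and 0.28 with a median of -0.0041. The lowest of the energy families was Slc27a1, a fatty acid transport protein, at -0.34 ± 0.293.

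Both probe sets with an unadjusted p under 0.05 in the average lay outside those groups. Slc25a28, mitoferrin-2, which brings iron into mitochondria, was lower by 0.26 on the log2 scale (-0.26 ± 0.093, adjusted limma p 0.371), and 1 of 12 seized mice lay above the untreated mean of its own genotype. Slc4a4, the sodium-bicarbonate cotransporter of astrocytes, was 0.32 ± 0.122 higher (adjusted limma p 0.46), and 10 of 12 seized mice lay above that mean. Neither passed the adjusted threshold. Among the 22 kept mitochondrial carriers the median was 0.015, and 12 of them were above 0. Slc25a4, the ADP/ATP carrier of the inner mitochondrial membrane and the SLC25 probe set with the highest mean signal, differed by 0.037 ± 0.071. The 17 probe sets for metal transporters lay between -0.21 and 0.20, from the zinc exporter Slc30a4 to the zinc importer Slc39a4. Slc39a3, another zinc importer, differed by -0.16 ± 0.101. The synaptic vesicle zinc transporter Slc30a3 differed by -0.058 ± 0.081. The 16 probe sets for organic solute carriers lay between -0.25 and 0.33, their ends being Slc23a3, of the ascorbate transporter family, and the choline transporter-like protein Slc44a2. The neuronal vitamin C transporter Slc23a2 differed by 0.056 ± 0.055. Slc44a1, the choline transporter-like protein with the highest mean signal in its family, differed by -0.17 ± 0.123. The 9 nucleotide sugar and Golgi carriers lay between -0.064 and 0.35, with Slc35e1 highest, and Slc35b1, which had the highest mean signal of its family, differed by -0.028 ± 0.128. Slc4a3, an anion exchanger of neurons, differed by -0.046 ± 0.078, and the adaptor Slc9a3r1 by -0.19 ± 0.110.

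Within genotypes, 0 of 110 passed after seizure in wild-type mice (0.0544% of all probe sets) and 0 in beta4 null mice (0.0136%). At an unadjusted limma p under 0.05 there were 4 in wild-type mice (4.24% of all probe sets) and 2 in beta4 null mice (1.74% of all). In alpha7 +/T mice 1 of 110 passed (0.909%), against 2.8% of all probe sets (1.71% risen and 1.09% fallen), and 14 (12.7%) had an unadjusted p under 0.05 against 18.4% of all. The probe set called was Slc25a28. Its signals were 282, 395.5, 243, 284 and 204 in untreated alpha7 +/T mice and 193, 168, 210.2, 180.3 and 170.2 in seized ones. All 5 seized mice lay below the untreated mean, and the groups overlapped only through untreated mouse 5, the 8-week-old, and seized mouse 3. Slc25a28 fell by 0.58 on the log2 scale (SE 0.152, adjusted limma p 0.0361). In wild-type mice it ranged from 186 to 286 untreated, with a median of 229.8, and was 229, 178 and 209 after seizure. In beta4 null mice it was 185, 241, 194, 229 and 248.5 untreated and 217, 228, 206 and 204 after seizure. The groups overlapped in both of these genotypes, with differences of -0.18 and -0.03. The level of Slc25a28 did not differ between array classes at the threshold (0.0068 ± 0.11, adjusted limma p 0.964), and the difference was -0.70 on high-ratio and -0.47 on low-ratio arrays alone. Among mice of 7 weeks or older, which leaves 1 untreated alpha7 +/T mouse, it was -0.15. It remained called in 8 of 16 other settings and in 20 of 28 fits that left out a mouse, and lay below 0 in every one of these.

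The next members in alpha7 +/T mice did not pass in this fit. Slc4a4 was 81.4, 82.2, 62.3, 62.5 and 78.0 in untreated and 176, 113, 117, 111 and 81.3 in seized mice. Only the lowest seized mouse overlapped the untreated range, and the difference was 0.68 (adjusted limma p 0.0607). Slc38a2, a glutamine transporter of neurons, was 269.7, 257, 245, 219 and 309 untreated and 421, 255, 336, 461 and 482 after seizure, a difference of 0.56 (adjusted limma p 0.0682). With array class as a covariate, 12 of the 110 passed in this comparison (10.9%), 7 higher and 5 lower, against 978 of all 7350 probe sets (13.3%) in the same fit. They included Slc25a28 (-0.58 ± 0.151), Slc12a2, the chloride-loading cotransporter NKCC1 (0.62 ± 0.162), Slc4a4 (0.65 ± 0.198), Slc38a2 (0.60 ± 0.163) and Slc22a17, a brain member of the organic cation transporter family (-0.55 ± 0.138). The 7 others were Slc25a5, Slc31a1, Slc39a6, Slc25a36, Slc39a4, Slc27a1 and Slc25a10. The untreated alpha7 +/T mice of this comparison are also those set against wild-type mice below. Of 7 endothelial marker probe sets tested, Eng and Cldn5 fell in the same comparison, by 0.90 and 1.26 on the log2 scale. The fit without a covariate gave these calls, with 1.09% of all probe sets fallen. The median of the 7 was -0.45. The summed signal of all 9 endothelial probe sets on the array was 1208 to 1959 in untreated and 791.5 to 1076 in seized alpha7 +/T mice. Of 7 meningeal probe sets tested 1 fell, for Col1a1 (by 1.28), and the list's median was 0.048. Summed over the 8 on the array, signals overlapped, at 1955 to 2822 in untreated and 1599 to 2678 in seized mice. Pituitary marker genes summed to between 199 and 11140 in seized alpha7 +/T mice, against 176 to 225 in untreated ones. The part of other cell types in the solute carrier differences was not tested.

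**Figure D3:**
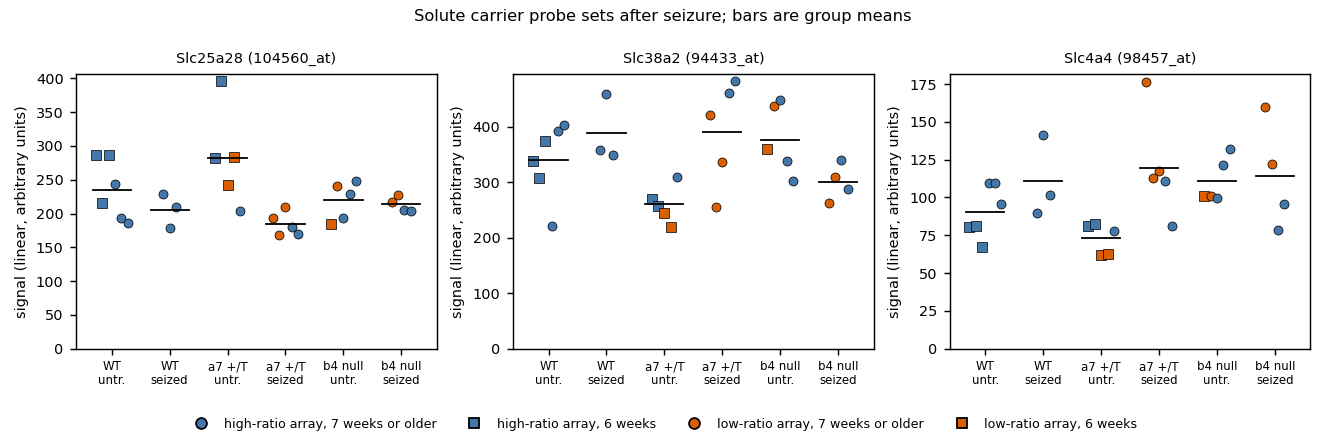
Signals (linear, arbitrary units, y axis) of Slc25a28, Slc38a2 and Slc4a4 in each of 28 mice by group, with bars at group means, colour for array class and squares for mice of 6 weeks. In alpha7 +/T mice the seized values of Slc25a28 lie between 168 and 210.2, against 204 to 395.5 in untreated mice.

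Untreated alpha7 +/T mice differed from untreated wild-type mice in 14 of 110 solute carrier probe sets (12.7%), against 16% of all probe sets kept. Of the 14, 9 were higher (7.73% of all probe sets) and 5 lower (8.29% of all). At an unadjusted limma p under 0.05 there were 37 (33.6%), against 35.1% of all probe sets. The median difference was 0.18 over the solute carriers and 0.063 over all probe sets. The split depended on scaling: with each array centred on its median, which moved the median of all probe sets to -0.177, 4 were higher and 16 lower, and after quantile normalization 5 were higher and 5 lower. Over all probe sets the same scalings gave 191 higher and 1256 lower, and 373 higher and 646 lower. By role the 14 comprised 4 metal transporters, 3 organic solute carriers, and 2 each of neurotransmitter, mitochondrial, and pH and ion carriers, with 1 of the energy families. No amino acid carrier and no nucleotide sugar carrier passed, with 3 and 2 at an unadjusted p under 0.05.

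The copper importer Slc31a1, on probe set 101877_at, had the smallest adjusted p. Untreated wild-type signals ran from 170.2 to 269 with a median of 197, and the alpha7 +/T signals were 101, 120.1, 98.2, 89.2 and 125. The groups did not overlap. The difference was -0.93 ± 0.162, 1.90-fold lower in alpha7 +/T mice, with an adjusted limma p of 0.00247. The other Slc31a1 probe set, 103845_at, did not show it: wild-type signals ran from 159 to 259 with a median of 193, alpha7 +/T signals were 133, 234, 196, 199 and 231.5, and the difference was -0.0091 (adjusted limma p 0.98). The choline transporter-like gene Slc44a4 was read on 96761_at, and its other probe set, 162285_r_at, was not kept. Its untreated wild-type signals ran from 55.1 to 91.3 with a median of 72.4. In alpha7 +/T mice they were 117, 109.9, 143, 126 and 140.0. These groups did not overlap either, and the difference was 0.79 ± 0.150, 1.73-fold higher, with an adjusted limma p of 0.00604. Slc6a9 was 389.9, 408, 621, 745 and 365.5 in alpha7 +/T mice, all above the wild-type maximum of 359. It was higher by 0.68 ± 0.179 (1.60-fold, adjusted limma p 0.0193). The highest values, 621 and 745, were those of the low-ratio arrays, and Slc6a9 was also 0.54 ± 0.0884 higher on low-ratio arrays at large. For Slc31a1 101877_at and Slc44a4 the differences between array classes did not pass (-0.25 and 0.20, adjusted limma p 0.0632 and 0.129).

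Among the other ion and anion carriers, Slc12a2 ran from 771.5 to 1187 in untreated wild-type mice with a median of 904, and was 591, 459.9, 434, 402 and 998 in alpha7 +/T mice. Mice 1 to 4, all 6 weeks old, lay below every wild-type mouse, and mouse 5 lay among them. The difference was -0.79 ± 0.185 (1.72-fold lower, adjusted limma p 0.0136). The wild-type mice of 6 weeks had 832, 842 and 1187 and the older ones 771.5, 1089 and 965. Slc4a2, a chloride-bicarbonate exchanger, was 172.5, 232, 266, 312 and 137 in alpha7 +/T mice against 107 to 169 in wild-type mice. Only mouse 5 overlapped, and the difference was 0.72 ± 0.184 (1.64-fold higher, adjusted limma p 0.0176).

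The metal transporters that passed included 3 lower and 1 higher, counting Slc31a1. The zinc exporter Slc30a4 was 229, 219, 179, 203.5 and 269.8 in alpha7 +/T mice and 239 to 405.5 in wild-type mice with a median of 337. Only mouse 5 overlapped, and the difference was -0.59 ± 0.172 (adjusted limma p 0.028). The zinc importer Slc39a6 was lower (-0.47, adjusted limma p 0.039) and Slc39a7, which moves zinc out of the endoplasmic reticulum, was higher (0.76, adjusted limma p 0.043). Slc39a7 was highest on the low-ratio arrays of mice 3 and 4, at 416 and 432, against 248, 167 and 192 in the other mice. Of the organic solute carriers, the urate transporter Slc22a12 was higher by 1.21 ± 0.349 (2.31-fold, adjusted limma p 0.027), from a dim wild-type range of 23.6 to 58.2. Slc22a17 was 2948, 2872, 2707, 3136 and 1902 in alpha7 +/T mice against 1667 to 2630 in wild-type mice, a difference of 0.50 (adjusted limma p 0.034). Its alpha7 +/T mouse 5 lay within the wild-type range and the others above it. Slc6a13 was higher by 0.46 (adjusted limma p 0.035). The fatty acid transport protein Slc27a1 was 256, 246, 262, 341 and 61.5, against 57.3 to 168 in wild-type mice, and was higher by 1.33 ± 0.458 (adjusted limma p 0.047). Of the mitochondrial carriers, the pyrimidine nucleotide carrier Slc25a36 was lower (-0.47, adjusted limma p 0.044) and the ADP/ATP carrier Slc25a5 was higher on 100619_r_at (0.77, adjusted limma p 0.048). On its other kept probe set, 100618_f_at, Slc25a5 was 0.51 higher with an adjusted limma p of 0.19. Its remaining probe set, 100617_at, was not kept. Both kept probe sets were higher on low-ratio arrays, by 0.71 ± 0.152 on 100619_r_at and 1.02 ± 0.0833 on 100618_f_at. The suffix _f marks a probe set whose probes match several members of a sequence family. Slc32a1 did not pass (-0.70, adjusted limma p 0.062): its alpha7 +/T signals of 2621, 2371, 1578, 1815 and 2585 all lay below the wild-type minimum of 3159.

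**Figure D4:**
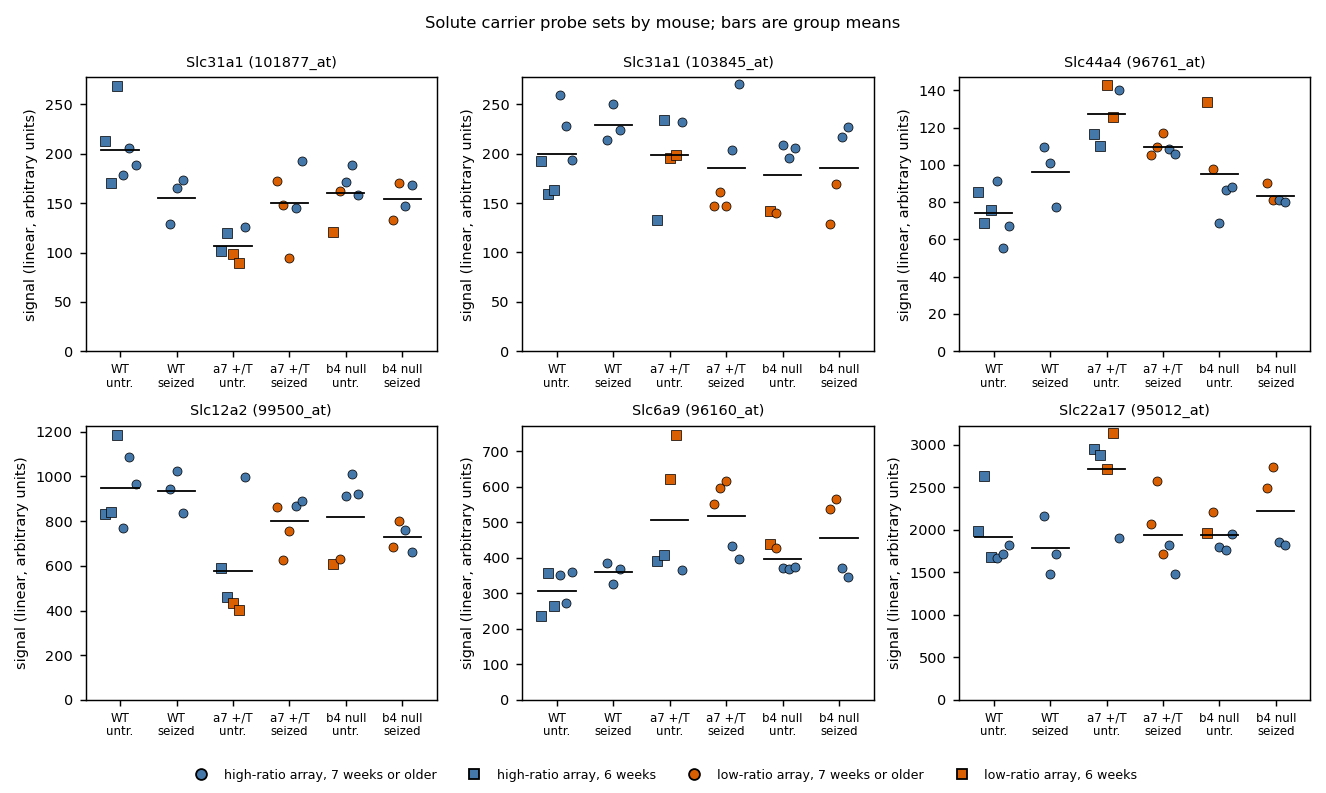
Signals (linear, arbitrary units, y axis) of both Slc31a1 probe sets, Slc44a4, Slc12a2, Slc6a9 and Slc22a17 in each of 28 mice by group, with bars at group means, colour for array class and squares for mice of 6 weeks. Untreated alpha7 +/T mice lie below all untreated wild-type mice on Slc31a1 101877_at and overlap them on 103845_at.

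How many of the 14 passed depended on how array class, age and title prefix were handled. With array class as a covariate 7 solute carriers passed (6.36%), against 669 of all 7350 probe sets (9.1%) in the same fit. Of the 7, 6 were among the 14: Slc31a1 (-0.83), Slc44a4 (0.71), Slc12a2 (-0.64), Slc4a2 (0.52), Slc6a9 (0.47) and Slc22a12 (1.10). The other was Slc22a18 (1.07 ± 0.342), an organic cation transporter-like gene. On high-ratio arrays alone, which keep 3 alpha7 +/T mice, 0 passed, against 0.0408% of all probe sets. Slc31a1 was then -0.81, Slc44a4 0.74, and Slc22a12 1.09, while Slc25a36 was -0.15, Slc6a9 0.36 and Slc39a7 0.32. The fit among mice of 7 weeks or older keeps 1 untreated alpha7 +/T mouse, so only effect sizes are given. In that fit Slc31a1 was -0.60 and Slc44a4 was 1.01, while Slc4a2 was 0.013 and Slc12a2, Slc27a1 and Slc39a6 changed sign (0.098, -0.18 and 0.19). With title prefix as a covariate 2 passed, Slc31a1 (-0.92) and Slc44a4 (0.70), a share of 1.82% against 1.39% of all probe sets. Among 6-week mice with the same title prefix, where ages are equal, 4 passed (3.64%, against 1.73% of all probe sets). They were Slc31a1 (-1.07), Slc12a2 (-1.01), Slc30a4 (-0.83) and Slc27a1 (1.56), without Slc44a4. Array class stayed uneven in that fit, since alpha7 +/T mice 3 and 4 were low-ratio and wild-type mice 1 to 3 were all high-ratio. Low-ratio arrays at large differed by 1.38 for Slc27a1, -0.37 for Slc12a2, -0.37 for Slc30a4 and -0.25 for Slc31a1 101877_at. Without untreated alpha7 +/T mouse 5 the count was 27, and without mouse 4 it was 2, Slc31a1 and Slc44a4. The shares of all probe sets in those fits are not given here, so these counts do not single out the solute carriers. Slc31a1 101877_at and Slc44a4 passed in all 28 fits that left out a mouse, and in 14 and 13 of 16 other settings.

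**Figure D5:**
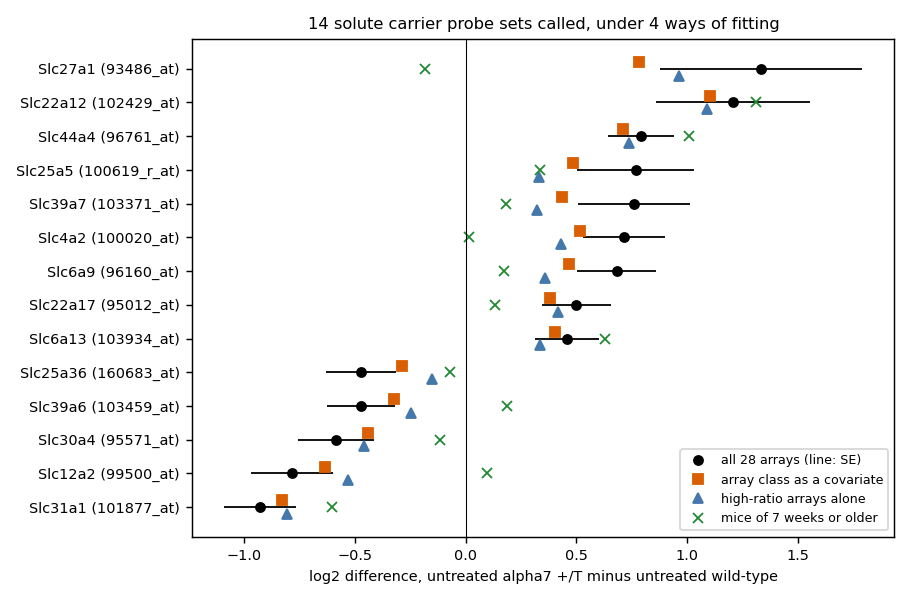
Log2 difference between untreated alpha7 +/T and untreated wild-type mice (x axis) for the 14 solute carrier probe sets called (y axis), with all arrays (black, line for SE), with array class as a covariate, on high-ratio arrays alone, and among mice of 7 weeks or older. Slc12a2, Slc27a1 and Slc39a6 change sign among the older mice, which include 1 untreated alpha7 +/T mouse, and the others, with Slc31a1 at -0.60 and Slc44a4 at 1.01, do not.

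Promoters are shown for the pair of genes called in every fit that left out a mouse and for the carrier called after seizure, because these are the members the comparisons turn on. They are RefSeq sequences of build GRCm38.p6, 250 bases before to 50 after the transcript start, written 5′ to 3′. Capitals mark matches on either strand to the GC box GGGCGG and to CCAAT.
Slc31a1 (chr4:62360451-62360750, plus strand): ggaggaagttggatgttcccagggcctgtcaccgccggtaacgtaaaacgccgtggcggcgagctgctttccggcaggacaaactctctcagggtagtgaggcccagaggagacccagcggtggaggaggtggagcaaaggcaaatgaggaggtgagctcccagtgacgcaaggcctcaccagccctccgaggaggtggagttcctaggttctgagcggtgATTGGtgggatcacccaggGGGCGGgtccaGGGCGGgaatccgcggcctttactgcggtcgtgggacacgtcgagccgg
Slc44a4 (chr17:34914216-34914515, plus strand): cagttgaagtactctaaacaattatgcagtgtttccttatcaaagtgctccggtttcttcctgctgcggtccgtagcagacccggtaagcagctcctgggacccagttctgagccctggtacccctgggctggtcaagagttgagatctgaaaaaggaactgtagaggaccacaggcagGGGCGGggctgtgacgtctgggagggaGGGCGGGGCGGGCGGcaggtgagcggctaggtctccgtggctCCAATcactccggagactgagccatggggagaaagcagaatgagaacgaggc
Slc25a28 (chr19:43674832-43675131, minus strand): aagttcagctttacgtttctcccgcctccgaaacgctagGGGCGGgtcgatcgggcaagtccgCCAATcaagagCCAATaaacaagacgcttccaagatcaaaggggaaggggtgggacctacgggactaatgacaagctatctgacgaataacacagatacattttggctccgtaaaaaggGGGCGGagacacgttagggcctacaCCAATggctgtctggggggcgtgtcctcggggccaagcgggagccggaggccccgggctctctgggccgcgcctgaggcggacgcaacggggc
All 3 windows held both motifs. None of the 3 held a cAMP response element (TGACGTCA), an AP-1 site (TGANTCA), an EGR site (GCGNGGGCG) or a TATA box (TATAAA). Of the 150 genes, 123 matched the promoter table, with 173 promoters. The GC box was in 61.3% of these and in 35.7% of all 32851 promoters, CCAAT in 30.6% and 37.4%, and the EGR motif, which can overlap a GC box, in 11.6% and 5.55%. The AP-1 motif was in 4.62% and 7.81%, the cAMP response element in 1.16% and 1.79%, and the TATA box in 7.51% and 13.6%. These are counts of letters in a window.

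Slc31a1 and Slc44a4 differed by less in the other mutant and after seizure. In untreated beta4 null mice Slc31a1 101877_at was 121, 162, 172, 188 and 158 and overlapped the wild-type range, a difference of -0.35 (adjusted limma p 0.38). Slc44a4 was 133.5, 97.5, 68.8, 86.4 and 87.9 there, also overlapping, a difference of 0.34 (adjusted limma p 0.37). In seized mice Slc31a1 101877_at was 128, 165 and 173 in wild-type, 173, 148, 94.2, 145 and 193 in alpha7 +/T, and 133, 170.1, 147 and 168.5 in beta4 null animals, and all 3 ranges overlapped. Slc44a4 was 109, 101 and 77.5, then 105, 109.8, 117, 108 and 106, then 90.5, 81.2, 80.9 and 80.2 in the same groups. Its seized alpha7 +/T range overlapped that of wild-type mice and lay above that of beta4 null mice.

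Untreated beta4 null mice gave 0 calls among the 110 against wild-type mice (0.0136% of all probe sets), with 18 (16.4%) at an unadjusted limma p under 0.05 against 12.9% of all. Slc6a9 did not overlap the wild-type range, at 438.5, 429, 371, 368 and 375, a difference of 0.39 (adjusted limma p 0.38). Nor did the serotonin transporter probe set 99040_at of Slc6a4, at 27.8, 26.5, 28.9, 32.1 and 33.9 against 36.5 to 45.7 in wild-type mice (-0.45, adjusted limma p 0.50). Its signals are dim, since the array medians of untreated beta4 null mice ran from 46.3 to 58.3. The share of all probe sets without overlap was not counted. Among seized mice, 0 of 110 passed for alpha7 +/T against wild-type (0.00% of all) and 0 for beta4 null against wild-type (0.0136%), with 7 and 5 at an unadjusted limma p under 0.05 (12% and 4.42% of all). These comparisons share the wild-type mice within each treatment. The test of whether the seizure difference itself varied with genotype gave 0 of 110 (0.0272% of all), with 8 at an unadjusted limma p under 0.05 (7.66% of all).

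Of the 12 genes with a pair of kept probe sets, the pair had the same sign in 10 for the seizure average, in 7 for seizure in alpha7 +/T mice, and in 11 for untreated alpha7 +/T against wild-type mice. The pairs of opposite sign in the average were those of Slc23a3 (-0.25 and 0.079) and Slc25a5 (-0.053 and 0.22). A shared sign did not mean a shared size, as for Slc31a1 in untreated alpha7 +/T mice (-0.93 and -0.0091).

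Genes that power or assist the carriers were read the same way from listed genes. Sodium and proton pumps, whose gradients drive many carriers, had 14 probe sets tested. None passed in the seizure average, with a median of 0.030, and in untreated alpha7 +/T mice 2 were higher and 1 lower: Atp6v0a1 (1.92 ± 0.655), Atp6v1b2 92597_s_at (0.95 ± 0.326) and Atp6v1d (-0.61 ± 0.171). The other Atp6v1b2 probe set, 92598_at, was at 0.034 (adjusted limma p 0.80). Of 5 probe sets in the list of accessory genes, Bsg, the chaperone of monocarboxylate transporters, was 1.57 ± 0.489 higher in untreated alpha7 +/T mice. The same list held Npm1, which is a nucleolar protein and not a carrier accessory. Npm1 was lower in untreated alpha7 +/T mice (-0.57 ± 0.154). It was higher after seizure in alpha7 +/T mice (0.60 ± 0.161), where 2.8% of all passed. Of 15 probe sets for enzymes of glutamate and lactate, Glud1, glutamate dehydrogenase, was lower in untreated alpha7 +/T mice (-0.45 ± 0.145). Of 6 carbonic anhydrase probe sets, Car8, a catalytically inactive member, was lower there (-0.90 ± 0.276), and neither calcium pump passed. None of the probe sets in these 4 last lists passed in the seizure average.

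Markers of other cell types were read in the same comparison of untreated mice by whole lists, where 16% of all probe sets passed. Summed signals take in every probe set of the listed genes on the array, including those not tested. Choroid plexus genes, of which 3 of 6 were on the array, had 0 calls, with Kl at -0.59, Ttr at -0.49 and Folr1 at 1.16 (median -0.49). Their summed signals were 1006 to 1775 in wild-type and 728.5 to 1238 in alpha7 +/T mice. Of 7 meningeal probe sets 1 was lower, for Dcn (-0.64), while both Col1a1 probe sets stood at 0.50 and 0.72 without passing. The meningeal median was 0.11, with summed signals of 2008 to 2310 and 1955 to 2822. Of 6 neuronal probe sets 1 was lower, Stmn2 95670_at (-0.54), the other Stmn2 probe set was at -0.077, and the list's median was 0.17. Summed neuronal signals were 7558 to 9759 in wild-type and 7140 to 8504 in alpha7 +/T mice. Of 10 astrocyte probe sets 1 of the pair for Gfap was higher (0.75, the other 0.031) and 1 of the pair for Gja1 lower (-0.58, the other -0.36), with a median of 0.094. Of 9 oligodendrocyte probe sets 1 of the pair for Mag was higher (1.53, the other 0.49), with a median of 0.49. Their part in the solute carrier differences was not tested.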

How the data were processed

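The authors deposited linear signal intensity values for each probe set. MAS5 is the tool that the submitters' processing notes name, without a version. Whole-brain RNA was hybridised to 1 array per mouse. Probe sets were named from the platform annotation and all solute carrier symbols matched a GRCm38.p6 gene table. Detection calls were not used, so it is not known which dim signals exceeded background. Precision is limited by the number of arrays. No further normalization was applied before taking log2. Tests used limma (3.58.1, R 4.3.3; lmFit and eBayes with trend), with 1 mean per group and all 28 arrays in the fit, two-sided, with Benjamini-Hochberg adjustment over 7350 probe sets at 0.05. Array class was a Gapdh log2 ratio under 0.5. Alternatives changed scaling, filter, floor, variance model, covariates or samples.

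The members, gene lists and array class were chosen with earlier results of these data known. Named probe sets were those called (up to 12 risen and 12 fallen per comparison), the one with the highest mean signal and the one with the smallest p in the seizure average in each family with at least 3 kept, the neurotransmitter and barrier transporters, and paired probe sets of opposite sign with an unadjusted p under 0.05. Slc22a18, Slc25a10, Slc25a44, Slc25a53, Slc9a3r2 and the other probe set of a pair were named after their values were seen. Recovery was tried on simulated data with 200 of 7350 probe sets changed. In the seizure average the fit recovered 50.5% of log2 changes of 0.5 and 88.0% of 1. It recovered 6.50% and 68.5% for seizure in alpha7 +/T mice, and 9.50% and 66.0% for untreated alpha7 +/T against wild-type mice. The real seizure average had 30 calls among 7350 probe sets, where the adjusted threshold is stricter than with 200 changed. Of all probe sets kept, 52.1% differed between array classes, and recovery with such a difference was not tested. The shares therefore do not give the power behind the 0 of 110 in the seizure average.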

Additional observations from a re-analysis of the deposited data

Results flagged for a closer look

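The 46 named probe sets that were kept were each examined in the 5 groups of 4 or more mice, 230 groups in all. In 10 of them (4.35%) 1 mouse stood far from its group, by a rule that chance meets in about 1 in 20, so their number is no more than chance gives. In untreated alpha7 +/T mice Slc1a2 was 144.3 in mouse 2 against 71.8 to 84.4 in the others, and Slc27a1 was 61.49 in mouse 5 against 246 to 341. In untreated wild-type mice Slc2a3 93804_at was 75.76 in mouse 4 against 136 to 164, and Slc4a3 was 608.2 in mouse 3 against 778 to 878. Untreated beta4 null mouse 3 was the highest for both Slc30a3, at 1073 against 868 to 918, and Slc30a4, at 409.8 against 301 to 319.7. In seized beta4 null mice Slc39a6 was 185.0 in mouse 4 against 139.7 to 146, and Slc44a4 was 90.46 in mouse 1 against 80.2 to 81.2. In the same group Slc6a4 99040_at was 24.01 in mouse 2 against 40.6 to 44.5, and Slc7a2 was 23.43 in mouse 3 against 40.7 to 45.3.

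For 5 probe sets every seized mouse of one genotype lay above its untreated mean and every seized mouse of another lay below. Differences between the seizure differences, on the log2 scale, were 0.6831 for Slc23a3 161149_r_at between beta4 null and wild-type mice and 1.093 between beta4 null and alpha7 +/T mice. They were 0.3338 for Slc30a3 between wild-type and alpha7 +/T mice, 0.5319 for Slc38a2 between wild-type and beta4 null mice, and 0.7771 for Slc6a4 161695_f_at between the same pair. For Slc44a4 they were 0.5898 between wild-type and alpha7 +/T mice and 0.5357 between wild-type and beta4 null mice. In the limma test of the genotype interaction 0 of 110 solute carriers passed, with a lowest adjusted p of 0.411.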

How the results depend on the processing

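For untreated alpha7 +/T against wild-type, where 14 solute carriers were called, the count was 8 with no filter. With age as a covariate it was 8 (7.27%, against 7.63% of all probe sets). Title prefix as a covariate gave 2 (1.82%, against 1.39%) and array class gave 7 (6.36%, against 9.1%). The count was 0 on high-ratio arrays alone (0.0408% of all) and 6 with the compared groups alone. In alternatives added after the data were seen it was 7 with array class and age. Among 6-week mice of 1 title prefix it was 4 (3.64%, against 1.73%), with low-ratio arrays only among the alpha7 +/T mice. Counts printed without a share of all probe sets do not single out the solute carriers. Leaving out each mouse gave 2 (without untreated alpha7 +/T mouse 4) to 27 (without mouse 5), with 3 without mouse 3, and 6, 6 and 7 without untreated wild-type mice 3, 5 and 6. Among mice of 7 weeks or older, which keep 1 untreated alpha7 +/T mouse, Slc39a6 (0.187), Slc27a1 (-0.1828) and Slc12a2 (0.09752) changed sign.

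For seizure in alpha7 +/T, where 1 was called, the count was 0 with array weights. It was 0 with age as a covariate, against 0.163% of all probe sets. Title prefix as a covariate gave 2 (1.82%, against 3.43%) and array class gave 12 (10.9%, against 13.3%). The count was 0 on high-ratio arrays alone (0.177% of all) and 9 on low-ratio arrays alone. It was 0 with the compared groups alone and 0 with array class and age. Leaving out each mouse gave 0 (without any 1 of untreated mice 1 to 4 or seized mice 1 and 4) to 9 (without untreated mouse 5), with 4 without seized mouse 2 and 2 without seized mouse 3. Counts printed without a share of all probe sets, here and under array weights, do not single out the solute carriers. Array weights gave 4 in the seizure average, 11 for seized alpha7 +/T against wild-type and 31 for seized beta4 null against wild-type, where the equal-weight fit gave 0 in each. Leaving out each mouse kept 0 for these, for seizure within wild-type or beta4 null animals, for untreated beta4 null mice and for the interaction. The cause of these changes was not tested. No paired analysis was possible because mouse numbers follow deposition order and pair no animals.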
